A study of Mus musculus with 14 samples.

Results

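The 38 genes described here encode the enzymes and carriers that oxidize fatty acids in mitochondria and feed the citrate cycle. They are 38 of the 24062 genes in the count table, 22 for fatty acid oxidation and 16 for pyruvate entry and the citrate cycle, and they were chosen by function with the differences between plexiform neurofibromas (PNs) and controls in these same libraries already known. The comparisons between control, slow-growing and fast-growing groups therefore describe the chosen genes and do not test the choice. Every gene was found in the table and all 38 passed the filter on low counts in each comparison with controls, while *Cpt1b* did not pass it between fast- and slow-growing PNs.

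A fatty acid is bound and activated to acyl-CoA in the cytosol, passed across the inner mitochondrial membrane by the carnitine shuttle, and then shortened by cycles of dehydrogenation, hydration, a further dehydrogenation and thiolysis that release acetyl-CoA. Citrate synthase joins acetyl-CoA, from fat or from pyruvate, to oxaloacetate, and the cycle passes electrons to the respiratory chain. Heart, muscle and brown fat are rich in these enzymes. In nerve, neurons with their axons, Schwann cells (SCs) and the fat around the nerve all hold them, and in bulk tissue fewer cells of a type and less RNA per cell cannot be told apart.

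Bulk RNA-seq was performed on 14 tissues from mice of a mixed background of C57BL/6, I-129 and FVBN that received no drug. Controls were dorsal root ganglia (DRGs) with nerve from *Nf1 fl/fl* mice (n = 3), which carry the floxed alleles without Cre. PNs came from *DhhCre;Nf1 fl/fl* mice, in which the Dhh promoter drives Cre in the SC lineage, so that other cell types of the tumor keep *Nf1*. By MRI at 7 and 9 months of age, a change of less than 5 mm3 over 2 months defined slow-growing PNs (n = 5) and growth of more than 35 mm3 defined fast-growing PNs (n = 6). RNA was taken from frozen tissue, at 9 months by the methods of the study, although 7 months is given for PNs elsewhere in it.

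Between 9596773 and 17594164 reads were counted on genes per library, and 3 counts correspond to between 0.166 and 0.317 CPM (counts scaled to library size with TMM factors, the unit of all levels below). This floor covers counting error only. The labels give each library its own number but do not say that each is a separate mouse, so p-values measure the spread between these samples, and they do not say whether control and PN libraries were prepared together. Markers of sensory neurons and SCs were present in every group, but fast-growing PN 1191 held neuron markers at a summed level of 26.4 CPM, against 1486 to 12397 CPM in the remaining libraries. All 3 controls held markers of brown fat and skeletal muscle, whose values stand beside the results below.

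The summed level of the 38 members was 10317, 10282 and 12978 CPM in the controls. It was 2923, 5237, 4989, 3368 and 4424.5 CPM in slow-growing PNs 1079, 1198A, 1202, 1203 and 1206, and it ranged from 1822 to 2940 CPM in the 6 fast-growing PNs. The group means were 11193 ± 1547 (SD, n = 3), 4188 ± 1009 (SD, n = 5) and 2291 ± 466 CPM (SD, n = 6), so that PNs held 37.4% and 20.5% of the control level. Every control lay above every PN, while the highest fast-growing PN, 1071, lay above the lowest slow-growing PN, 1079.

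**Figure D1:**
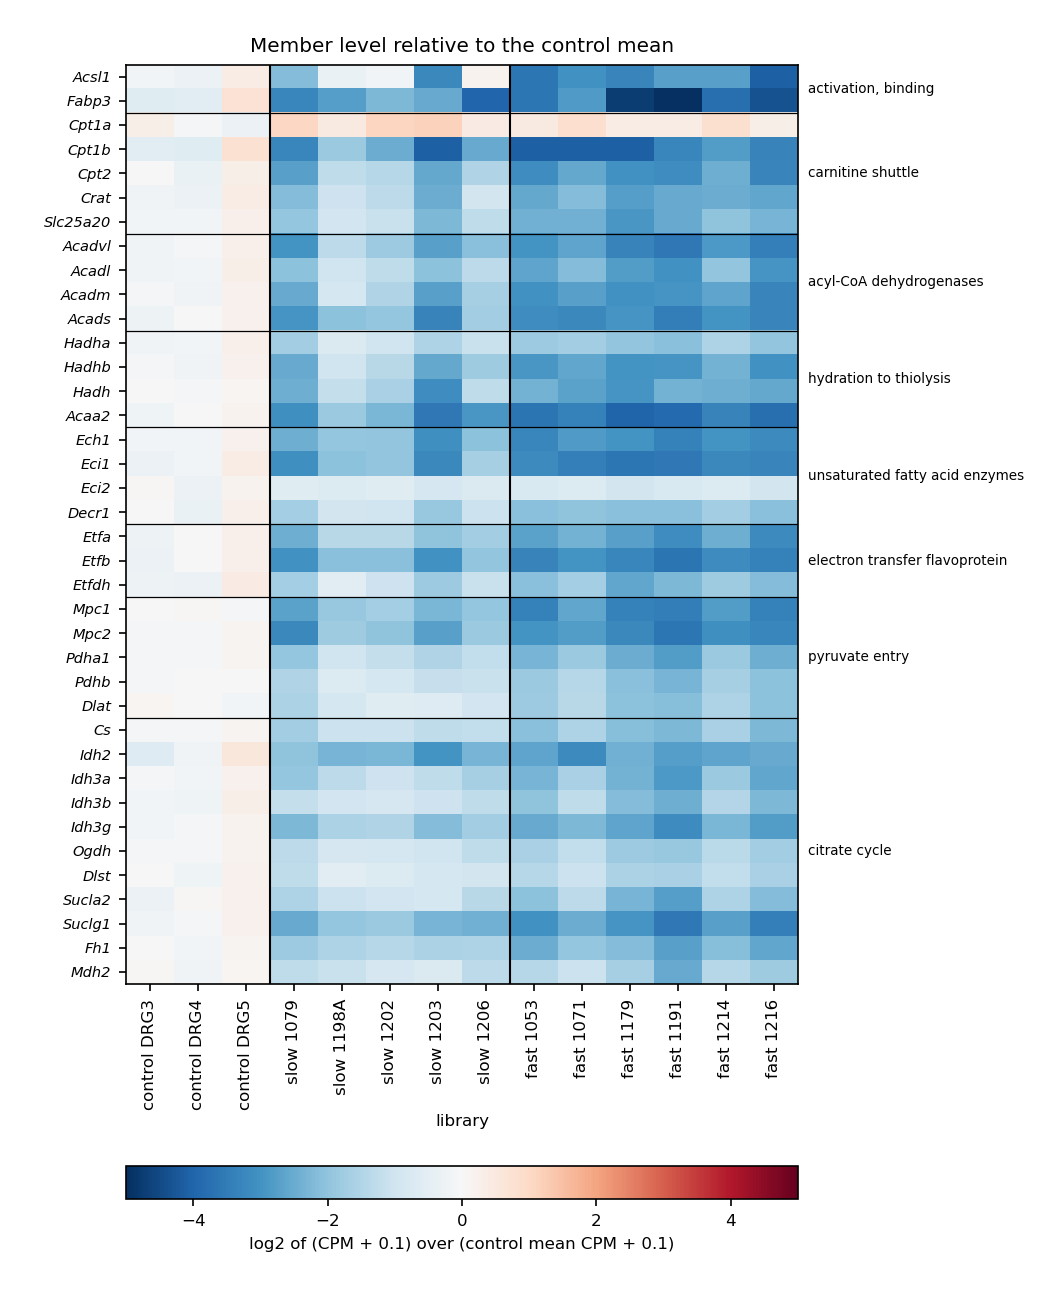
Level of each of the 38 members (rows, grouped by role) in each of the 14 libraries (columns), as the log2 of its CPM over the control mean with 0.1 added to both. Rows other than *Cpt1a* and *Acsl1* are below the controls in PNs, and *Acsl1* stays near the control color in slow-growing PNs 1198A, 1202 and 1206.

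In PNs versus controls, 36 of 38 members were called lower (adjusted p under 0.05 in the quasi-likelihood test of edgeR, Benjamini-Hochberg over all genes), where 13.4% of 16283 genes tested were called lower. In the same comparison 1 member, *Cpt1a*, was called higher, where 12.9% of all genes were. In 36 members every PN lay below every control, which held for 9.48% of all genes. The median log2 fold change of the members was -1.95, beside 0.10 over all genes. For slow-growing PNs versus controls, 36 members were called lower (7.13% of 15714 genes) and 0 higher (4.12%), with 1 member, *Cpt1a*, past an unadjusted p of 0.05 in the higher direction (13.3% of all genes) and a median of -1.57. DESeq2 called 1 member higher there (10.3% of 15668 genes). The count of 36 was 21 without control DRG5, a fit for which the share of all genes is not given here. For fast-growing PNs versus controls, 37 were called lower (16.7% of 16037 genes) and 1 higher (14.8%), with a median of -2.60. These comparisons share the 3 controls. The level of brown fat markers was then added as a covariate in edgeR. The counts called lower became 1 for PNs (0.203% of all genes), 0 for slow-growing PNs and 0 for fast-growing PNs. At an unadjusted p under 0.05 they were 11 for PNs (7.05% of all genes), 19 for slow-growing PNs and 12 for fast-growing PNs. In the same fits 0% of all genes were called lower in slow-growing and in fast-growing PNs, and 5.28% and 6.92% were lower at an unadjusted p under 0.05, so that the loss of calls was not particular to the members. The members were chosen with these differences known, so nothing is read from their share.

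Of the genes that prepare fatty acids, *Fabp3* and *Acsl1* behaved differently. *Fabp3* encodes the heart and muscle fatty acid-binding protein. In library order DRG3, DRG4 and DRG5 for controls and 1079, 1198A, 1202, 1203 and 1206 for slow-growing PNs, kept for all values by library below, *Fabp3* stood at 113, 114 and 285 CPM in the controls, the slow-growing PNs at 17.8, 25.1, 35.4, 29.7 and 10.7 CPM and the fast-growing PNs from 0.68 to 24.1 CPM (median 10.4). Controls lay above all PNs, and its log2 fold change in PNs was -3.35 (standard error 0.59). The lowest library, fast-growing PN 1191, was also the library that nearly lacked neuron markers. *Acsl1* encodes the long-chain acyl-CoA synthetase of fat, muscle and liver. *Acsl1* stood at 489, 437 and 689.5 CPM in the controls, the slow-growing PNs at 119, 423, 488, 58.3 and 603 CPM and the fast-growing PNs from 31.7 to 81.9 CPM (median 59.9). Slow-growing PNs 1202 and 1206 overlapped the controls, while 1203 lay within the range of the fast-growing PNs and 1079 nearest above it. *Acsl1* was the only member lower in PNs without being called (log2 fold change -1.53, standard error 0.78, adjusted p = 0.164 by edgeR). Its log2 fold change turned positive with the level of brown fat markers as a covariate, as given under the processing below. These per-library values of *Acsl1* are given because of the spread seen in them.

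The carnitine shuttle held the only member that was higher in PNs. *Cpt1a* encodes the isoform of carnitine palmitoyltransferase 1 found in most tissues and *Cpt1b* the isoform of muscle and brown fat, and this enzyme gates the entry of long-chain fatty acids. *Cpt1a* lies on chr19:3322334-3385733 (mm10, plus strand). *Cpt1a* stood at 84.0, 64.3 and 56.1 CPM in the controls, the slow-growing PNs at 142, 93.3, 143, 149.6 and 91.2 CPM and the fast-growing PNs from 84.2 to 122 CPM (median 91.1). Every PN lay above every control, by a narrow margin at the edge, and the share of all genes with this order is not given here. The log2 fold change in PNs was 0.69 (standard error 0.22, adjusted p = 0.0283 by edgeR). Leaving out DRG4 gave an adjusted p of 0.118 in edgeR and leaving out DRG5 gave 0.163, and it was 0.0751 with the trend of gene length and GC content removed.

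*Cpt1b*, on chr15:89416405-89425863 (minus strand), was counted 12, 11 and 26 times in controls, 1, 5, 2, 0 and 2 times in slow-growing PNs 1079, 1198A, 1202, 1203 and 1206, and 0 to 2 times in fast-growing PNs. With 49 counts in controls and 14 in PNs, its pooled level was 16.01 times as high in controls (95% exact interval 8.70 to 31.4, counting error only), and the fitted log2 fold change was -3.88 (standard error 0.71). Of its 3372 exonic bases, 2744 also lie in exons of *Gm44502* on the same strand, and how reads shared by genes were counted is not given in the sources used here. Per kilobase of transcript, the mean level of *Cpt1a* was 15.8, 28.6 and 23.0 CPM in the control, slow- and fast-growing groups, against 0.553, 0.0585 and 0.0167 CPM for *Cpt1b*. By these counts *Cpt1a* was the more abundant isoform in all 3 groups. *Cpt1b* would be counted too low if reads shared with *Gm44502* were dropped, so this order holds for the deposited counts only. Among the 38 members ordered by mean level per kilobase, *Cpt1a* stood 36th in controls, 24th in slow-growing and 19th in fast-growing PNs.

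The remaining shuttle genes were called lower. *Cpt2*, which reforms acyl-CoA inside the mitochondrion, had a log2 fold change of -2.28, the carnitine acylcarnitine carrier *Slc25a20* of -1.89, and carnitine acetyltransferase *Crat* of -1.94 in PNs. For *Cpt2* the range was 117 to 178 CPM over controls, 22.4 to 60.1 CPM over slow-growing PNs and 14.9 to 26.7 CPM over fast-growing PNs.

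The promoter of *Cpt1a* is shown because it belongs to the only member called higher in PNs, and that of *Acadm*, a member called lower, because it holds the same motif. Both are RefSeq windows of 300 bases on GRCm38.p6, from 250 bases before the annotated start to 50 after it, written along the gene, with the AGGTCA motif on either strand in capitals. AGGTCA is the core of the sites bound by PPAR, RXR and oestrogen-related receptors, nuclear receptors known as regulators of fat oxidation. The *Cpt1a* window is chr19:3323051-3323350 (plus strand) and the *Acadm* window is chr3:153944594-153944893 (minus strand).
Cpt1a: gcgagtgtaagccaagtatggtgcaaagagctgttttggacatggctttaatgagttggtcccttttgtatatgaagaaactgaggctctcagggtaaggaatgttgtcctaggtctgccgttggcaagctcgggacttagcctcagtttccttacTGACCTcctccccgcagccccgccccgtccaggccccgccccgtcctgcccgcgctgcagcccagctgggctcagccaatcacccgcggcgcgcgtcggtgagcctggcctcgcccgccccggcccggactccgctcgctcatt
Acadm: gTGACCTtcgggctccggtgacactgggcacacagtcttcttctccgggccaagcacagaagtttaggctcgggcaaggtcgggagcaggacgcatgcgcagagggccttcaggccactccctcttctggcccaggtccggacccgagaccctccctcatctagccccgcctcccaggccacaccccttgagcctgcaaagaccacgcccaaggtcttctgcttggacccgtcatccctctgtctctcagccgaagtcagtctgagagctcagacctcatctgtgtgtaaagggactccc

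The 4 acyl-CoA dehydrogenases, which open each cycle and differ by the chain length they take, were all lower in PNs, with a median log2 fold change of -2.39. *Acadvl* (very long chains) was at -2.54, *Acadl* (long chains) at -1.96, *Acadm* (medium chains) at -2.24 and *Acads* (short chains) at -2.73 with a standard error of 0.33. *Acads* stood at 19.5, 23.3 and 27.4 CPM in the controls, the slow-growing PNs at 2.96, 5.63, 5.99, 2.19 and 6.94 CPM and the fast-growing PNs from 2.04 to 2.92 CPM (median 2.55). *Acadm* stood at 297, 277 and 363 CPM in the controls, the slow-growing PNs at 54.5, 168, 112, 48.0 and 97.5 CPM and the fast-growing PNs from 31.5 to 50.1 CPM (median 39.5). Controls lay apart from PNs for both genes. Slow-growing PN 1203 lay within the range of the fast-growing PNs for both, and 1079 lay nearest above it. Of the 2686 exonic bases of *Acadvl*, 1151 overlap exons of *Dvl2* on the opposite strand, and the strand setting of the counting is not given in the sources used here.

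Among the enzymes that complete the cycle, the thiolase *Acaa2* differed most. *Acaa2* stood at 438, 496 and 574 CPM in the controls, the slow-growing PNs at 59.6, 140.1, 103, 42.0 and 66.0 CPM and the fast-growing PNs from 31.2 to 49.4 CPM (median 38.6). The mean fell from 503 ± 68.3 CPM (SD, n = 3) to 82.2 ± 39.3 (SD, n = 5) and 40.003 ± 7.52 (SD, n = 6), and the log2 fold change in PNs was -3.09 (standard error 0.35). The medium- and short-chain hydroxyacyl-CoA dehydrogenase *Hadh* was at -2.14.

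*Hadha* and *Hadhb* encode the alpha and beta subunits of the trifunctional protein, which carries out the later steps on long chains. They lie head to head on chromosome 5, *Hadha* at chr5:30118304-30155162 on the minus strand and *Hadhb* at chr5:30155248-30184593 on the plus strand, with 85 bases between the GENCODE gene bounds and 273 between the RefSeq starts. The window of *Hadhb*, chr5:30155003-30155302 on the plus strand of GRCm38.p6, is shown because it holds the 85 bases between this pair of members, in capitals, and the RefSeq start of *Hadhb* but not that of *Hadha*.
Hadhb: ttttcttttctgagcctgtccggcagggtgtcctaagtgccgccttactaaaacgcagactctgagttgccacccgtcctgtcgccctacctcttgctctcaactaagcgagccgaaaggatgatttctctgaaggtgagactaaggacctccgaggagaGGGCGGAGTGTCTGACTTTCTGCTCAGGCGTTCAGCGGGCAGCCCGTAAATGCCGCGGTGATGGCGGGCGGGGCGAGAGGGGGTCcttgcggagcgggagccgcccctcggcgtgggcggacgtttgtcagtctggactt

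*Hadhb* stood at 859.5, 813 and 1067 CPM in the controls, the slow-growing PNs at 161, 461, 345, 155 and 268 CPM and the fast-growing PNs from 113 to 175 CPM (median 120.3). *Hadha* stood at 311, 314 and 416 CPM in the controls, the slow-growing PNs at 103, 212, 174, 120.1 and 161 CPM and the fast-growing PNs from 82.1 to 118 CPM (median 93.5). Controls lay above PNs for both subunits, and the highest PN was 1198A for both. The log2 fold change in PNs was -2.20 (standard error 0.36) for *Hadhb* and -1.50 (standard error 0.25) for *Hadha*, and the difference between the 2 genes was not tested. The window of *Hadhb* holds 0 copies of AGGTCA.

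**Figure D2:**
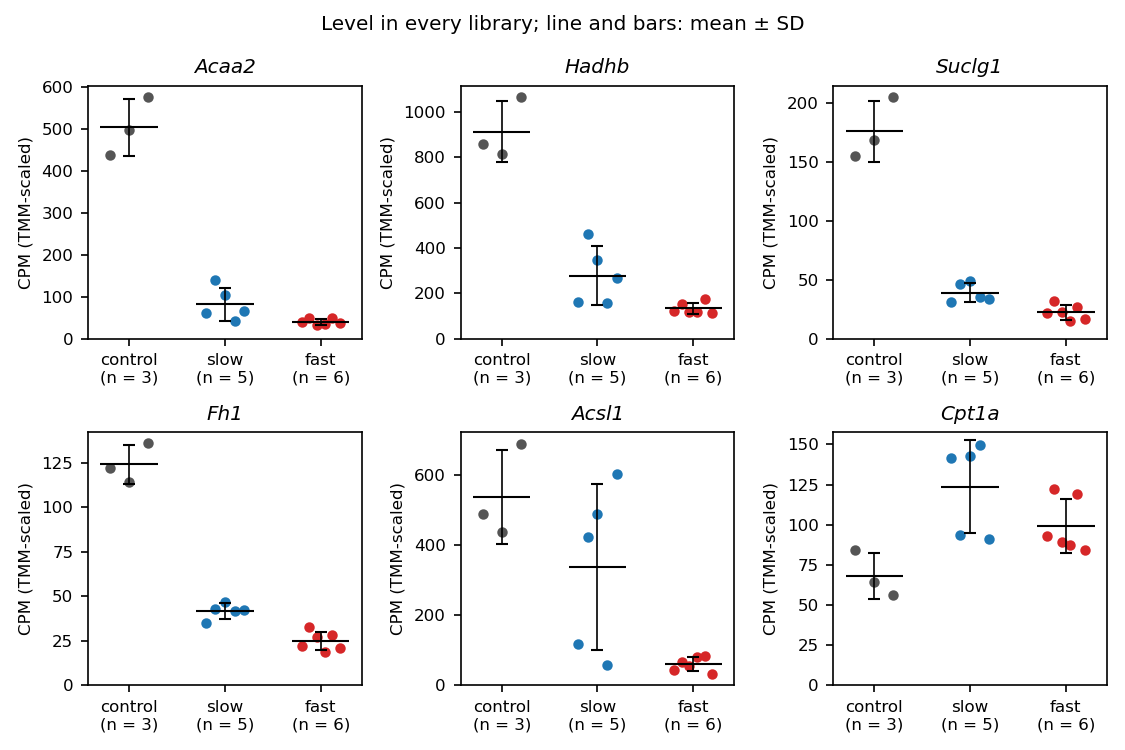
CPM of 6 members in every library by group, with the group mean as a line and the SD as bars on axes that start at 0. *Acaa2*, *Hadhb*, *Suclg1* and *Fh1* are lower in every PN than in every control, *Acsl1* spreads from 58.3 to 603 CPM among slow-growing PNs, and *Cpt1a* is higher in PNs.

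Unsaturated fatty acids need isomerases and a reductase before they can enter the cycle. In PNs *Eci1* was at a log2 fold change of -2.78 (standard error 0.36), *Ech1* at -2.65 and the dienoyl-CoA reductase *Decr1* at -1.63. *Eci1* stood at 112, 126 and 176 CPM in the controls, the slow-growing PNs at 16.3, 32.9, 35.5, 14.6 and 43.6 CPM and the fast-growing PNs from 11.2 to 15.1 CPM (median 13.3). *Eci2*, whose product is found in peroxisomes as well as mitochondria, moved least of all the members that were lower, at -0.74 (standard error 0.11). *Eci2* stood at 69.9, 54.2 and 75.9 CPM in the controls, the slow-growing PNs at 44.3, 41.9, 44.4, 37.2 and 40.9 CPM and the fast-growing PNs from 34.8 to 41.3 CPM (median 39.4). All controls lay above all PNs, and its slow- and fast-growing groups overlapped.

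The electron transfer flavoprotein takes electrons from every acyl-CoA dehydrogenase and passes them to the respiratory chain through its own dehydrogenase. The beta subunit *Etfb* was at -2.79 (standard error 0.30), the alpha subunit *Etfa* at -2.20 and *Etfdh* at -1.59 in PNs. *Etfb* stood at 282, 343 and 408 CPM in the controls, the slow-growing PNs at 42.2, 81.2, 80.9, 42.1 and 87.5 CPM and the fast-growing PNs from 27.7 to 43.8 CPM (median 34.8). It had the highest level per kilobase of all 38 members in controls, at 386 CPM, and stood 5th in slow-growing and 6th in fast-growing PNs. Of its 1164 exonic bases, 678 overlap *Gm45233* or *Mir7051* on the same strand.

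Pyruvate enters through the mitochondrial carrier, made of *Mpc1* and *Mpc2*, and is turned into acetyl-CoA by the pyruvate dehydrogenase complex. The carrier genes were at log2 fold changes of -2.55 (*Mpc1*) and -2.65 (*Mpc2*) in PNs, while the complex was at -1.77 (*Pdha1*), -1.43 (*Pdhb*) and -1.31 (*Dlat*). *Mpc2* stood at 204, 205 and 234 CPM in the controls, the slow-growing PNs at 22.7, 62.6, 53.7, 32.7 and 59.2 CPM and the fast-growing PNs from 17.4 to 30.7 CPM (median 24.3). *Mpc1* stood at 234, 242 and 223 CPM in the controls, the slow-growing PNs at 36.0, 63.3, 71.2, 47.5 and 60.1 CPM and the fast-growing PNs from 20.9 to 38.9 CPM (median 22.5). For both genes every control was above 200 CPM and every PN under 72 CPM.

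The 11 citrate cycle members were all lower in PNs, with a median log2 fold change of -1.59 and a range from -1.13 (*Dlst*, of the oxoglutarate dehydrogenase complex) to -2.56 (*Suclg1*). *Suclg1* encodes the alpha subunit of succinate-CoA ligase. *Suclg1* stood at 155, 168 and 205 CPM in the controls, the slow-growing PNs at 30.8, 46.3, 48.5, 35.02 and 33.5 CPM and the fast-growing PNs from 14.5 to 31.8 CPM (median 22.2). *Sucla2*, the ATP-forming beta subunit of the same ligase, was at -1.53. The mitochondrial NADP-dependent isocitrate dehydrogenase *Idh2* was at -2.52, and the subunits of the NAD-dependent enzyme were at -1.79 (*Idh3a*), -1.44 (*Idh3b*) and -2.18 (*Idh3g*). Citrate synthase, *Cs*, was at -1.59 and *Ogdh*, the oxoglutarate dehydrogenase, at -1.32.

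At the end of the cycle, fumarase (*Fh1*) was at -1.93 and malate dehydrogenase (*Mdh2*) at -1.30 in PNs. *Mdh2* stood at 450.3, 378 and 457 CPM in the controls, the slow-growing PNs at 177, 201, 237, 258 and 174 CPM and the fast-growing PNs from 74.3 to 205 CPM (median 148). Its lowest library was 1191 and its highest PN was 1203, the libraries with the lowest and highest level of neuron markers. By mean level per kilobase *Mdh2* and *Cs* stood 3rd and 4th in controls, at 267 and 264 CPM, and 1st and 2nd in both PN groups.

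**Figure D3:**
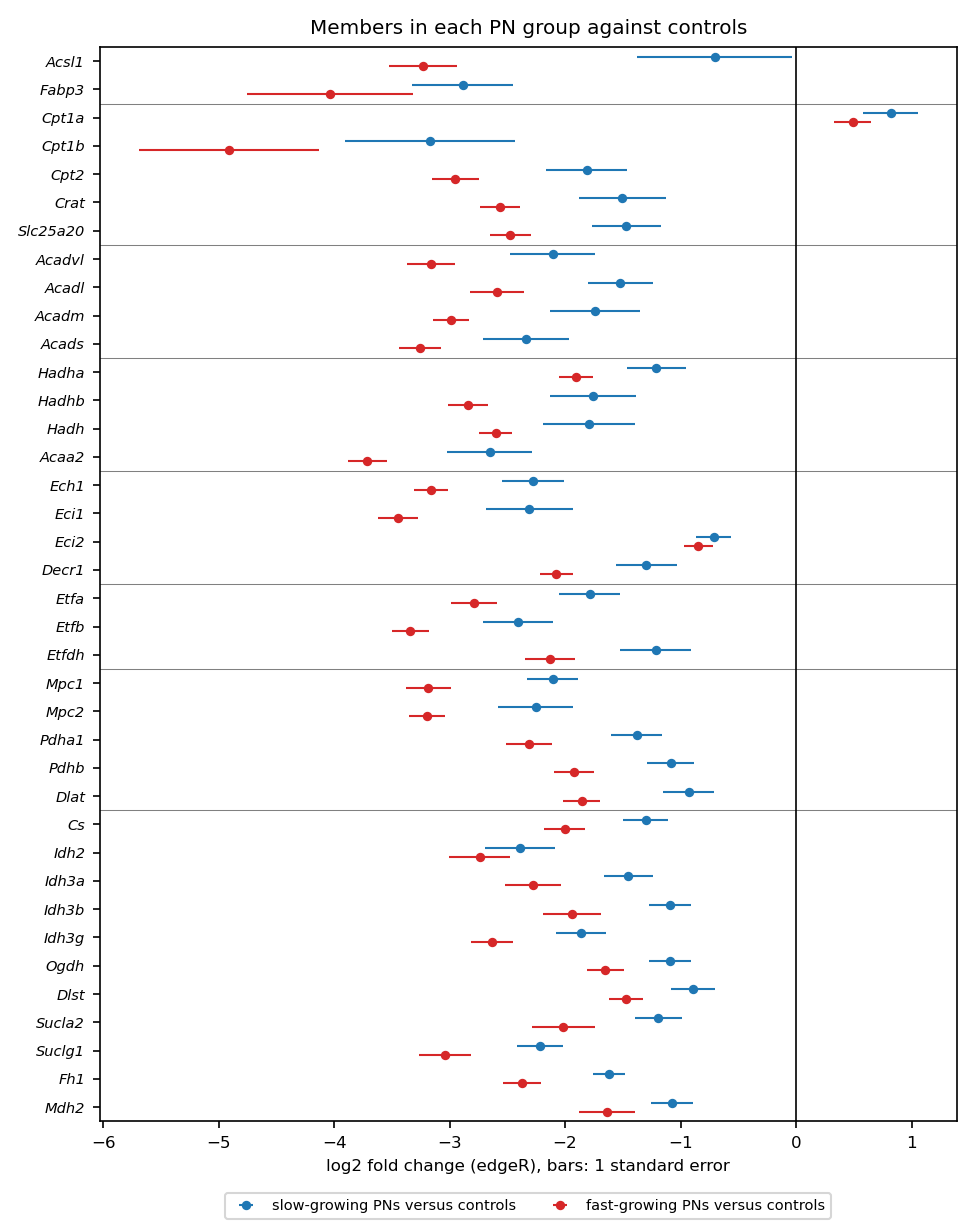
Log2 fold change of each member in slow-growing (blue) and fast-growing (red) PNs against the same 3 controls, with 1 standard error on either side and lines between role groups. The red point lies to the left of the blue point for every member, and only *Cpt1a* lies to the right of 0, at 0.82 and 0.49.

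Between the growth groups the members lay lower in fast-growing PNs, but few passed the test. In fast- versus slow-growing PNs all 37 members tested had negative log2 fold changes, with a median of -0.89 beside -0.03 over all genes, and *Cpt1a* was among them at -0.32. Only 4 were called lower, where 0.466% of 15465 genes were, and 0 were called higher, where 0.802% were. Adjusted p lay between 0.05 and 0.1 for 26 more, and 33 of 37 were lower at an unadjusted p under 0.05, as were 8.51% of all genes. The Wald test of DESeq2 called 31 members lower and 0 higher, where it called 5.0% of 14528 genes lower. In 1 member, *Fh1*, every fast-growing PN lay below every slow-growing PN, against 0.912% of all genes. *Fh1* stood at 34.7, 43.0, 46.5, 41.5 and 42.3 CPM in slow-growing PNs 1079, 1198A, 1202, 1203 and 1206 and at 22.2, 32.4, 27.2, 18.7, 28.1 and 20.7 CPM in fast-growing PNs 1053, 1071, 1179, 1191, 1214 and 1216, with controls at 122, 114 and 136 CPM.

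The called members were *Fh1* (log2 fold change -0.74, standard error 0.15), *Mpc1* (-1.06, standard error 0.22), *Dlat* (-0.91, standard error 0.19) and *Acsl1* (-2.50, standard error 0.53). Their adjusted p values by edgeR were between 0.0458 (*Fh1*) and 0.0484 (*Dlat* and *Acsl1*), close to the threshold. *Dlat* encodes the acetyltransferase of the pyruvate dehydrogenase complex. *Dlat* stood at 261, 244 and 221 CPM in the controls, the slow-growing PNs at 81.6, 131, 160.4, 156 and 125 CPM and the fast-growing PNs from 55.9 to 92.3 CPM (median 63.6). The groups overlapped, since slow-growing PN 1079 lay below fast-growing PNs 1071 and 1214. The count of 4 was 0 without any of 1079, 1202, 1206, 1053, 1179, 1191, 1214 or 1216, 9 without 1198A, 8 without 1071 and 23 without 1203. Without a filter on low counts it was 0. The shares of all genes called in these fits are not given here, so nothing about the members is read from the changes in this count.

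Libraries within a group differed, both in the members and in markers of fat, muscle and neurons. The median fatty acid oxidation member stood at 46.0%, 37.4% and 33.5% of its control mean in slow-growing PNs 1198A, 1202 and 1206, at 18.3% in 1079 and 17.05% in 1203, and between 10.9% and 18.1% in fast-growing PNs. General adipocyte markers (10 genes) summed to 2170, 1968 and 3613 CPM in 1198A, 1202 and 1206, to 256 CPM in 1079, to 23.3 CPM in 1203 and to between 26.0 and 314 CPM in fast-growing PNs, against 4185 to 5219 CPM in controls. The 3 slow-growing PNs with the highest fatty acid oxidation levels were thus the 3 PNs with the highest adipocyte markers. Skeletal muscle markers (15 genes) did not follow this order, with sums of 33.0 CPM in 1198A and 62.1 CPM in 1206 but 3622 CPM in 1079 and 3815 CPM in 1202. In fast-growing PN 1071 they reached 2499 CPM while its fatty acid oxidation median was 16.4%.

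Pyruvate entry and citrate cycle members spread otherwise. Their median was 29.1%, 46.9%, 48.0%, 41.1% and 39.3% of the control mean in slow-growing PNs 1079, 1198A, 1202, 1203 and 1206. It ranged from 14.9% in 1191 to 33.6% in 1071 among fast-growing PNs. Among PNs, the ratio of this median to the fatty acid oxidation median was highest in 1203, at 2.41, and in 1071, at 2.05. The lowest ratio among PNs was 1.02 in 1198A, with 1.17 in 1206, 1.18 in 1191 and 1.28 in 1202. Controls lay between 0.93 and 1.07. Sensory neuron markers (10 genes) summed to 12397 CPM in 1203 and 6675 CPM in 1071, to 2497 CPM in 1198A and to 26.4 CPM in 1191, but the ratio did not follow them throughout, since 1202 held 7413 CPM and 1216, with a ratio of 1.81, held 1988 CPM. Fast-growing PN 1191 was the lowest PN for 21 of the 38 members and slow-growing PN 1198A the highest for 19.

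**Figure D4:**
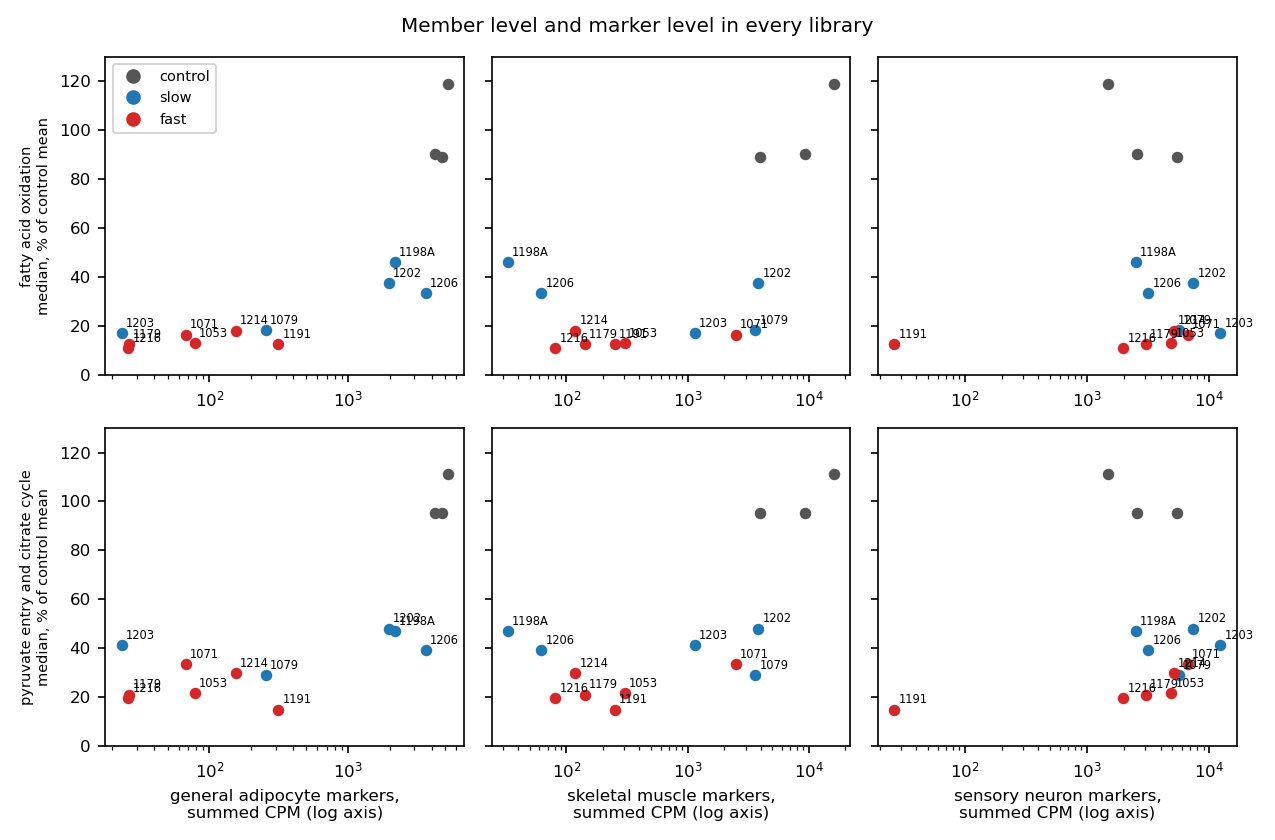
Median member level as a percent of its control mean (vertical axis) against the summed CPM of a marker list (horizontal log axis), 1 point per library, for fatty acid oxidation members in the upper row and pyruvate entry and citrate cycle members in the lower row. In the upper left panel PNs 1198A, 1202 and 1206 lie apart at 33.5% to 46.0%, and in the lower right panel PN 1191 lies alone at 14.9%.

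The summed levels of the fat and muscle marker lists lay higher in every control than in every PN, by a narrow margin for skeletal muscle. Brown fat markers (10 genes) summed to between 1583 and 2307 CPM in controls, 99.7 and 571 CPM in slow-growing PNs and 126 and 242 CPM in fast-growing PNs, and 8 of 10 were called lower in PNs with 0 higher. The 2 not called, *Zic1* (log2 fold change 1.13) and *Prdm16* (0.47), went the other way. *Ucp1*, the uncoupling protein that defines brown fat, stood at 835, 816 and 1290 CPM in controls, at 1.75, 284, 161, 1.73 and 58.9 CPM in slow-growing PNs 1079, 1198A, 1202, 1203 and 1206, and between 0.0553 and 78.4 CPM in fast-growing PNs. *Cidea* was at 0 in fast-growing PN 1216 and *Elovl3* at 0 in 1079, 1053, 1179 and 1216. In 1216, with a brown fat sum of 126 CPM, *Ppargc1a* stood at 41.3 CPM and *Prdm16* at 39.3 CPM, beside 0.403 CPM of *Ucp1*. The sum in PNs thus need not follow *Ucp1*. Skeletal muscle markers summed to between 3983 and 16148 CPM in controls, 33.0 and 3815 CPM in slow-growing PNs and 80.9 and 2499 CPM in fast-growing PNs, with 7 of 15 called lower. Slow-twitch muscle markers (8 genes, all called lower) summed to between 232 and 1091.5 CPM in controls and to at most 87.6 CPM in any PN. Of 10 adipocyte markers, 1 was called lower in PNs and all 10 in fast-growing PNs versus controls. In slow-growing PNs versus controls 3 brown fat, 0 skeletal muscle, 6 slow-twitch and 0 adipocyte markers were called lower, where 7.13% of all genes were. Single markers could overlap, as *Retn* stood at 82.1 CPM in slow-growing PN 1206 and between 30.9 and 60.8 CPM in controls.

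Of the other cell types, SC markers (8 genes) summed to between 2437 and 7248 CPM in controls, 4479 and 11884 CPM in slow-growing PNs and 5004 and 6766 CPM in fast-growing PNs, and 4 of 8 were called higher in PNs. The median log2 fold change of the neuron markers in PNs was 0.38. Fibroblast markers (6 genes) summed to between 1914 and 3707 CPM in controls, 1248 and 5562 CPM in slow-growing PNs and 5469 and 10336 CPM in fast-growing PNs, and 6 of 6 were called higher in fast-growing PNs versus controls. Their median log2 fold change in fast- versus slow-growing PNs was 1.15. Macrophage markers (6 genes) summed to between 117 and 404 CPM, 41.0 and 302 CPM, and 177 and 574 CPM in the same groups, with a median of 1.73 in fast- versus slow-growing PNs. In that comparison 0 of 6 genes of either list were called by edgeR, while 6 fibroblast and 5 macrophage markers were higher at an unadjusted p under 0.05 and DESeq2 called 4 of each higher. Endothelial markers (4 genes, 1 called lower in PNs) summed to between 269 and 368 CPM, 57.6 and 358 CPM, and 80.6 and 262 CPM. Fibroblast and macrophage sums thus reached their highest values in fast-growing PNs, the group with the lowest member levels, and their part in the members' difference was not tested. With the brown fat score (mean log2(CPM + 1) of its list) as a covariate, chosen after seeing the data, 1 member of 38 was called lower in PNs, and with the skeletal muscle score alone 31 were, where 6.18% of all genes were. The brown fat score ranged from 5.98 to 6.29 in controls and from 2.23 to 4.88 in PNs, so that this score and group cannot be told apart in that fit. The skeletal muscle score ranged from 7.65 to 9.63 in controls and from 1.26 to 7.58 in PNs, which nearly meet. The part of brown fat and muscle in the members' difference was not tested.

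Other genes of the same pathways were counted by list. Of 15 other genes of mitochondrial fatty acid oxidation, 8 were called lower and 2 higher in PNs, with a median log2 fold change of -1.14. The largest were the hydratase *Echs1* (-2.21), *Acad10* (-1.56) and the thioesterase *Acot13* (-1.54), while *Acad9* (0.66) and the brain isoform *Cpt1c* (0.79) were the ones called higher and are named for their direction. Of 13 tested further genes of the citrate cycle and pyruvate entry, 11 were lower and 0 higher, among them the succinate dehydrogenase subunits *Sdhb* (-2.29) and *Sdha* (-1.61). The 11 include *Idh1* (-1.11), *Aco1* (-1.01) and *Mdh1* (-1.23), which encode cytosolic forms of cycle enzymes.

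Of 6 kinases and phosphatases that switch pyruvate dehydrogenase off and on, 3 were lower and 1 higher. The kinases *Pdk4* (-2.49) and *Pdk2* (-1.44) were lower and the phosphatase *Pdp1* was higher at 1.15 (standard error 0.23, adjusted p = 0.00201 by edgeR). *Pdp1* lay between 23.1 and 32.1 CPM in controls, 38.7 and 61.2 CPM in slow-growing PNs and 65.3 and 83.9 CPM in fast-growing PNs, so that the 3 groups did not overlap. The share of all genes with such an order is not given here. Of 17 genes of ketone body and amino acid acyl-CoA oxidation, 10 were lower, led by *Bckdha* (-2.09), *Bckdhb* (-1.45) and *Pccb* (-1.32).

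In peroxisomes, which shorten very long chains, 6 of 12 genes were lower and 0 higher, with a median of -0.80 and *Ehhadh* (-1.12), *Scp2* (-1.09) and *Hsd17b4* (-0.93) as the largest among those called. Of 6 uptake genes only the lipoprotein lipase *Lpl* was called (-2.49). Of 16 regulators 8 were lower and 0 higher, among them the adipocyte factor *Pparg* (-2.96), the coactivator *Ppargc1b* (-2.49) and the acetyl-CoA carboxylase *Acacb* (-2.46), whose product malonyl-CoA inhibits the enzyme of *Cpt1a*. *Pparg* lay between 71.4 and 138 CPM in controls, 2.37 and 53.2 CPM in slow-growing PNs and 0.512 and 6.43 CPM in fast-growing PNs. *Ppara*, *Esrra* and *Ppargc1a* (also a gene of the brown fat list) were called lower too, at -2.07, -0.94 and -0.78. Of their relatives and partners, *Ppard* (-0.36), *Rxra* (-0.24), *Esrrb* (-1.37) and *Esrrg* (-0.78) were not called. All of these are named for their role after their values were seen. Against controls, 1 of 16 regulators was called lower in slow-growing PNs (7.13% of all genes) and 10 in fast-growing PNs (16.7%).

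Mitochondrial ribosomal proteins build the ribosome of the organelle, though *Mrps36*, listed with them by its symbol, is known as a subunit of the oxoglutarate dehydrogenase complex of the citrate cycle. Of 77 genes 67 were called lower in PNs and 0 higher, with a median of -0.94, and *Mrpl34* (-2.24), *Mrpl12* (-1.89) and *Mrps36* (-1.89) differed most. The members' median of -1.95 lay further from 0. Between fast- and slow-growing PNs the medians were -0.23 for the ribosomal proteins and -0.89 for the members. The ribosomal proteins were taken by symbol and the members with these differences known, so nothing is read from the larger medians of the members.

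**Figure D5:**
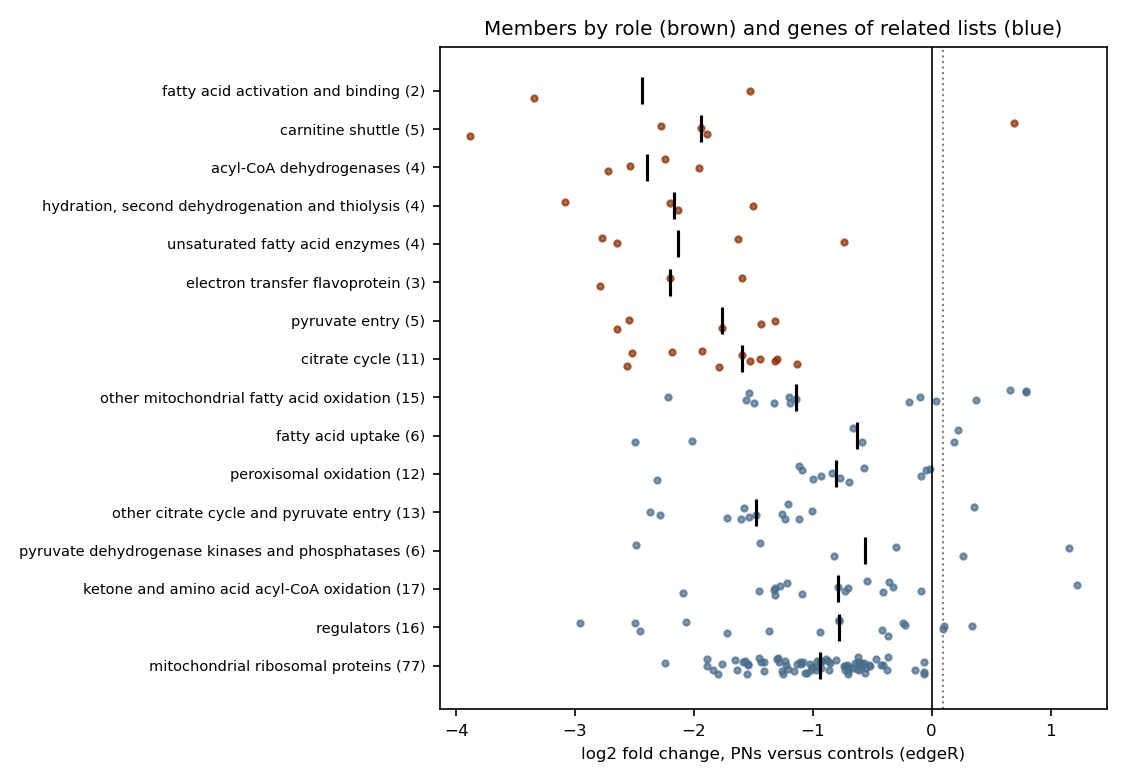
Log2 fold change in PNs versus controls of each tested gene of the member roles (brown) and of related lists (blue), with the list median as a bar, the number of genes in brackets and the median of all genes as a dotted line. Role medians lie between -2.44 and -1.59, and medians of the related lists between -1.48 and -0.56.

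Promoters of the members were searched for motifs of nuclear receptors on both strands. Of the 38 members, 33 had a RefSeq window, 40 windows in all, and *Acaa2*, *Cpt1b*, *Crat*, *Decr1* and *Idh3a* had none in the table. AGGTCA was found in 8 of 40 windows (20%), those of *Acadm*, *Acadvl*, *Cpt1a*, *Fh1*, *Idh3g*, *Mpc1*, *Ogdh* and *Sucla2*, and in 16.3% of 32851 windows of the same length. The member that was higher in PNs thus holds the motif as some that were lower do. TNAAGGTCA, which contains AGGTCA and is the form preferred by oestrogen-related receptors, was found in 0 of 40 windows and in 1.28% of all. The pair of AGGTCA copies with 1 base between them, bound by PPAR with RXR, was found in 0 of 40 windows and in 0.0396% of all. A match is a run of letters only, and its absence from 300 bases says nothing of sites elsewhere.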

How the data were processed

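The authors amplified total RNA from frozen tissue with the Ovation RNA-Seq System v2 and sequenced it. Per the labels' processing notes, CASAVA 1.4, FastQC 0.11.0, TopHat2 2.0.9, featureCounts 1.5.2 and edgeR 3.16.5 were used with mm10. The deposited counts are whole reads per gene, without normalization, and were used as deposited; the authors' table of normalized values was not used. Genes were fitted in R 4.3.3 with edgeR 4.0.16 (filterByExpr, TMM, glmQLFit and glmQLFTest, Benjamini-Hochberg over all genes tested, called under 0.05), with only the libraries of a comparison in the fit and no covariate. Levels are CPM scaled by TMM factors of all 14 libraries. Standard errors are the log2 fold change over the root of F. Positions come from GENCODE M21 (mm10), where 22750 genes were found under their symbol and a further 934 through older names, and promoters from RefSeq. Pcx and Emr1 stand in the table under these older symbols.

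The members and lists were chosen with earlier results of these data known. Every member is named. Values by library (for the 6 fast-growing PNs the lowest, median and highest) go to the member with the largest change in each role, both *Cpt1* isoforms, any member called higher, and the 3 members of lowest p in the comparison of fast- with slow-growing PNs. *Acsl1*, *Hadha*, *Hadhb*, *Eci2*, *Mdh2*, *Acadm* and *Cpt2* were added after their values had been seen, as were the genes called higher in other lists. Of each other list up to 3 called genes with the largest change are named, and some others for their role or place in the cell. Some genes of these lists are not reported here by name.

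The edgeR fit was tested on simulated data in which 200 genes were given a log2 fold change of 2. It recovered 70.5% for PNs versus controls (16088 genes), 56.0% for slow-growing PNs versus controls (15460), 69.0% for fast-growing PNs versus controls (15848) and 78.5% for fast- versus slow-growing PNs (15290), with 2.08%, 7.44%, 2.82% and 2.48% of calls false. Alternatives were RLE scaling, no filter, DESeq2 1.42.0, 1 fit of all libraries, a stricter threshold, covariates, a length and GC trend, and each library left out. Replicates are samples numbered separately in the labels. Figures used matplotlib 3.10.9.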

Additional observations from a re-analysis of the deposited data

Results flagged for a closer look

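Between fast- and slow-growing PNs, 4 members differed by the test of that difference itself (edgeR's quasi-likelihood test, adjusted p under 0.05). The log2 fold change was -2.50 for *Acsl1*, -1.06 for *Mpc1*, -0.91 for *Dlat* and -0.74 for *Fh1*. For each of the 4, leaving out 1 library could take the call away. In no group of 5 or 6 PNs did 1 library stand apart from the rest in the summed level or in the members chosen by the naming rule or in 5 of those added after their values were seen, over 36 groups tested by Dixon's criterion, where chance gives about 1 in 20.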

How the results depend on the processing

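In PNs versus controls the count of members called lower, 36, was between 36 and 37 under RLE scaling, no filter, DESeq2, 1 fit of all libraries, the stricter threshold, the length and GC trend, the neuron score and each library left out, and 31 with the skeletal muscle score alone. With brown fat and skeletal muscle scores as covariates it was 0 (2 at an unadjusted p under 0.05, edgeR) and the median log2 fold change was -0.19. With the brown fat score alone these were 1 (11 unadjusted) and -0.56. Calls were lost across the table in these fits, which called 0.0491% and 0.203% of all genes lower, and with either set of scores 0% of all genes were called lower in each of the other comparisons. In slow-growing PNs versus controls 36 became 21 at an adjusted p under 0.01, 0 with both scores (5 unadjusted, median -0.75), 0 with the brown fat score alone (19 unadjusted, median -0.79) and 14 with the muscle score alone (1.43% of all genes), and it lay between 21 (without DRG5) and 35 with 1 library left out. In fast-growing PNs versus controls 37 became 0 with both scores (13 unadjusted, median -1.09), 0 with the brown fat score alone (12 unadjusted, median -1.23) and 19 with the muscle score alone (0.617% of all genes, median -2.15), and the median lay between -2.67 and -2.32 with 1 library left out.

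Between fast- and slow-growing PNs the 4 calls became 0 without a filter (33 unadjusted), 31 with DESeq2, 18 in 1 fit of all libraries, 0 at an adjusted p under 0.01, and 0 with both scores (30 unadjusted), the brown fat score alone (30 unadjusted) or the muscle score alone (33 unadjusted, 0.349% of all genes called). With 1 library left out they lay between 0 and 23, while the median stayed between -0.99 and -0.78. For the single fit of all libraries and for fits with 1 library left out, the share of all genes called is not given here, in any comparison. Nothing about the members is read from the changes in those counts. The log2 fold change of *Acsl1* in PNs reversed to 2.37 with both scores and to 2.12 with the brown fat score alone, and that of *Dlat* to 0.11 with both scores. Both scores separate every control from every PN. The cause of these reversals was not tested. The single scores were chosen after seeing the data. No paired analysis was possible because the labels give no shared replicate numbers. Depth limits *Cpt1b*, at 5 counts or fewer in each PN.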
